A study of Mus musculus with 8 samples.

Results

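The nuclear genes for the subunits of oxidative phosphorylation were followed in the small intestine of mice that develop Apc-driven tumours. The genes were taken by symbol from the platform annotation: every gene starting with Ndufa, Ndufb, Ndufc, Ndufs, Ndufv, Uqcr, Atp5 or Cox4 to Cox8, and Sdha, Sdhb, Sdhc and Sdhd, without the Ndufaf assembly factors. This gave 82 genes of 18194 that had a probe set assigned to 1 gene only. They comprised 36 genes of complex I, 4 of complex II, 8 of complex III, 17 of complex IV and 17 of complex V. After the filter on dim probe sets, 78 of the 82 were tested among 13119 genes, with 34, 4, 8, 15 and 17 genes left in complexes I to V. The 4 genes below the filter were Cox7b2, Cox8b, Ndufa4l2 and Ndufb4.

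RNA from 8 samples was hybridised to Affymetrix arrays, 2 arrays for each of 4 groups. All mice were C57BL/6, carried the Min mutation of Apc, which leads to many intestinal tumours, and had loxP sites on both copies of Spint1, including the controls. Spint1 encodes HAI-1, a membrane-bound inhibitor of serine proteases. In the HAI-1 deficient mice a Cre recombinase driven by the villin promoter removed Spint1 in the intestinal epithelium, so stromal and immune cells kept the gene. The control mice carried no Cre. From each genotype, non-tumour mucosa and tumour tissue of the small intestine were compared. It is not stated in the labels if the 2 arrays of each group are separate mice, or if tumour and mucosa were taken from 1 mouse, so p-values measure only the spread between these samples.

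Oxidative phosphorylation takes place in the inner mitochondrial membrane. Complex I (NADH dehydrogenase) and complex II (succinate dehydrogenase, which is also an enzyme of the tricarboxylic acid cycle) pass electrons to ubiquinone. Complex III passes them on to cytochrome c, complex IV (cytochrome c oxidase) reduces oxygen, and complex V (ATP synthase) uses the resulting proton gradient to make ATP. In the small intestine, absorptive enterocytes are rich in mitochondria. Array signal is given throughout as log2 signal, and a difference is a difference of log2 signal, so 1 unit is a doubling.

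Spint1, the deleted gene, had signals of 12.87 and 13.00 in control mucosa and 12.75 and 13.06 in control tumours. It was 12.46 and 12.25 in HAI-1 deficient mucosa and 11.76 and 11.84 in HAI-1 deficient tumours. All 4 arrays of the deficient mice lay below all 4 control arrays. The differences of -0.58 in mucosa (adjusted p = 0.271) and -1.10 in tumours (adjusted p = 0.779, limma) did not pass the threshold, and the sources used here do not place the probe set relative to the deleted part. The replicate arrays of a group correlated at 0.947 to 0.968 across the genes tested. The array of control tumour replicate 2 stood apart in 1 measure of RNA quality. Its Gapdh probe set at the 3′ end was 25.9 times as bright as that at the 5′ end, while the ratio was 0.803 to 1.77 elsewhere. The same ratio for Actb was also the highest on this array but departed less, at 2.32 against 1.15 to 1.52 elsewhere. The labelling spike-ins were brighter on 3 arrays, replicate 2 of control mucosa, deficient mucosa and deficient tumour, at 9.17 to 9.42 against 7.69 to 7.96 on the others, and this split is treated below as a technical batch.

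The subunit genes were among the brightest on the array. The median mean signal of the 78 tested genes was 13.4, against 8.93 for all 13119 genes tested, and the median subunit gene stood at percentile 97.7. The mean signal was at least 12 for 71 of the 78. The highest single value of a subunit gene was 15.4 (Uqcrb, a small subunit of complex III), close to the highest value of any gene at 15.5. None of the subunit genes was listed at 0 on any array. Replicates also spread less for these genes, with a median within-group SD of 0.211 against 0.321 for all genes tested. Comparisons below are therefore also set beside the 1190 tested genes with a mean signal of at least 12, called the bright genes.

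Between tumour and mucosa, averaged over both genotypes (4 arrays a side), 3 subunit genes fell and none rose: Cox7a1 of complex IV and Sdhd and Sdhb of complex II. By the same test 35.8% of all genes tested were called, 10.1% lower and 25.7% higher in tumours, and 34.3% of the bright genes were called. The 3 genes are 3.85% of the 78. The median difference over the 78 genes was -0.13, with quartiles of -0.28 and 0.01, against a median of 0.20 over all genes tested and -0.10 over the bright genes. The subunit genes lay close together: the SD of the difference over genes was 0.25, against 0.92 for all genes and 0.74 for bright genes. The 95% confidence interval of the difference lay within 1 log2 unit of 0 for 72 of the 78 genes (92.3%), against 43.6% of all genes tested and 61.2% of the bright genes. In bulk tissue, fewer cells of a type and less RNA per cell cannot be told apart.

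**Figure D1:**
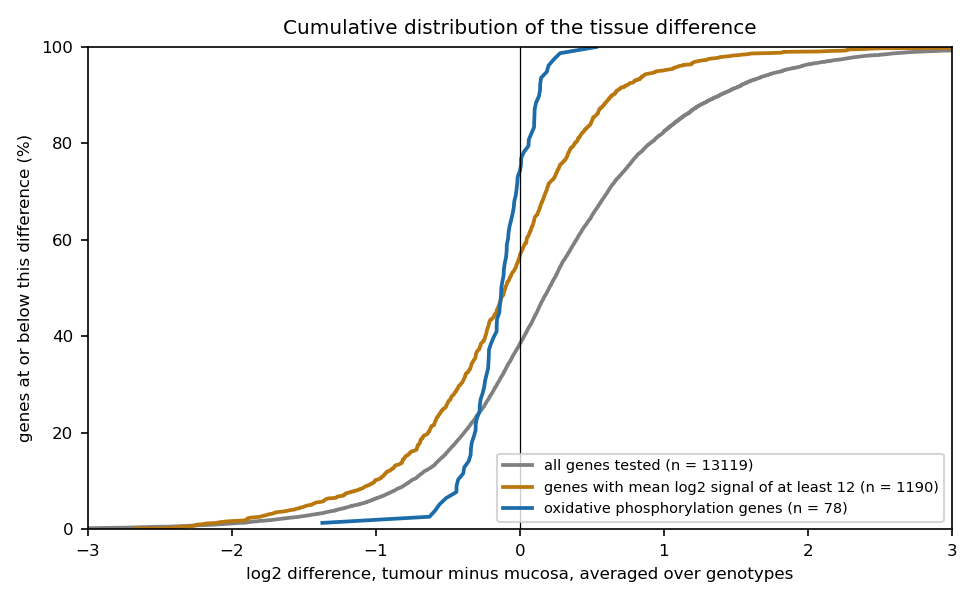
Cumulative share of genes (vertical axis, percent) at or below each log2 difference between tumour and mucosa averaged over genotypes (horizontal axis), for all 13119 genes tested, the 1190 with a mean log2 signal of at least 12, and the 78 tested oxidative phosphorylation genes. The curve of the subunit genes is the steepest, with an SD over genes of 0.25 against 0.92 and 0.74, and its median of -0.13 lies below that of all genes at 0.20; 1 gene, Cox7a1, lies apart on the left.

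By complex, the median difference between tumour and mucosa was -0.14 for complex I, -0.57 for complex II, -0.07 for complex III, -0.11 for complex IV and -0.10 for complex V. No test was made between complexes, because genes are not replicates of a condition. All 4 complex II genes had differences below 0, as did 23 of 34 in complex I, 5 of 8 in complex III, 12 of 15 in complex IV and 13 of 17 in complex V. Over the 78 genes 57 differences (73.1%) were below 0, against 38.4% of all genes tested and 56.7% of the bright genes. The medians moved with single arrays: from -0.24 without control tumour replicate 2 to -0.013 without control tumour replicate 1 for complex I, from -0.19 to 0.048 for complex III and from -0.23 to -0.0078 for complex V, without the same arrays. For complex II the median ran from -0.69 without deficient tumour replicate 1 to -0.41 without deficient tumour replicate 2, and for complex IV from -0.14 without deficient tumour replicate 1 to -0.037 without control mucosa replicate 2. Over all 78 genes it ran from -0.22 to -0.028, without control tumour replicate 2 and 1 in turn. Of the 78 genes, 9 had all 4 tumour arrays below all 4 mucosa arrays and 1 had them all above. Among all genes tested the arrays did not overlap for 9.9% in the lower and 23.4% in the higher direction. Of the 1190 bright genes, 289 and 186 did not overlap in these directions, so such a lack of overlap was common. The 9 genes, Cox7a1, Sdhb, Sdhd, Cox4i1, Atp5o, Uqcrfs1, Ndufa3, Ndufb3 and Ndufb9, came from each of the 5 complexes, and the 1 gene above was Ndufb1.

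**Figure D2:**
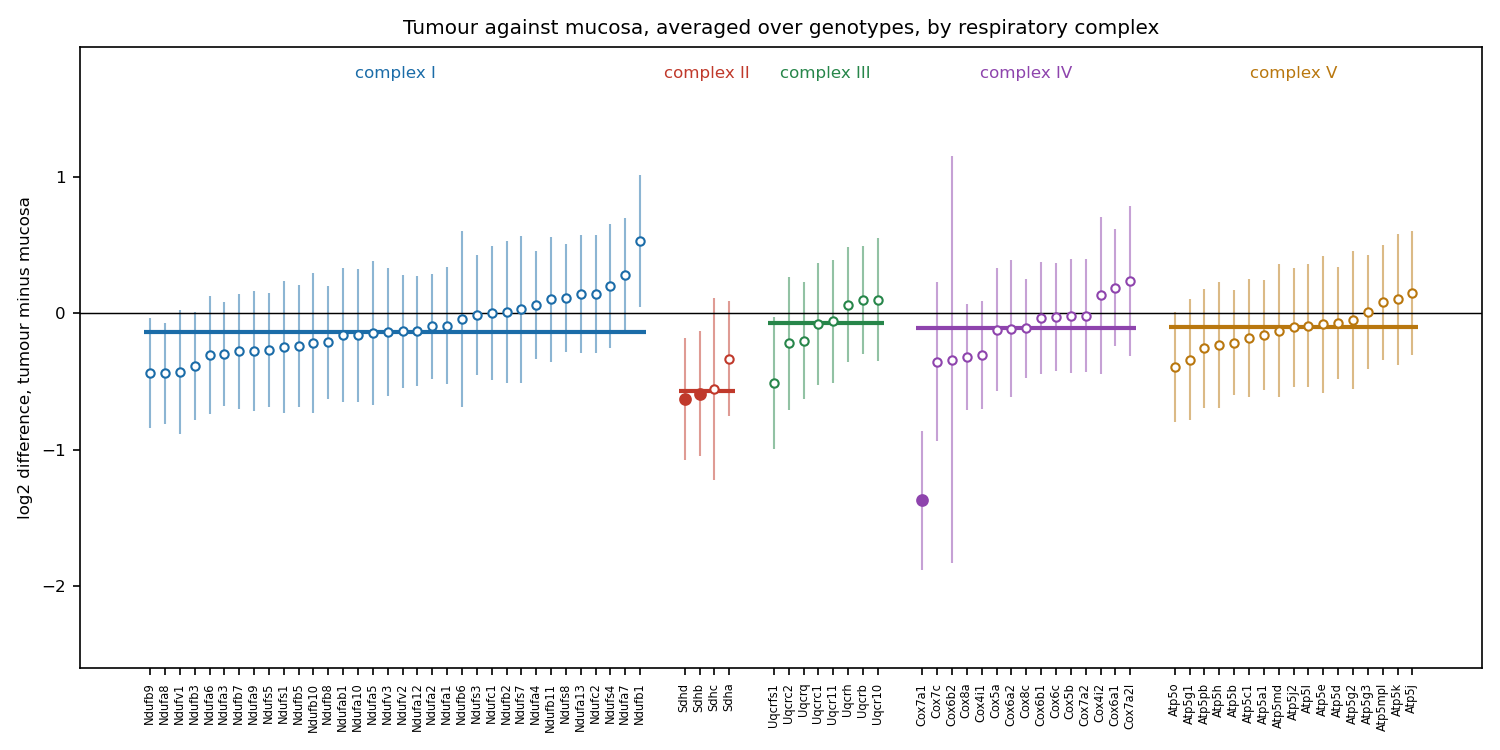
Log2 difference between tumour and mucosa averaged over genotypes (vertical axis) for each of the 78 tested genes, sorted within complexes I to V. Circles are fitted differences with 95% confidence intervals, filled where the adjusted p was under 0.05, and thick lines mark each complex's median (-0.14, -0.57, -0.07, -0.11 and -0.10); Cox7a1 at -1.37 lies below every other gene.

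Cox7a1, a complex IV subunit isoform best known from heart and skeletal muscle, showed the largest difference of the 78 genes. Its signal was 12.91 and 13.28 in control mucosa and 11.70 and 11.64 in control tumours. In HAI-1 deficient mice it was 12.84 and 12.82 in mucosa and 11.89 and 11.13 in tumours. Every tumour array lay below every mucosa array, in both genotypes. Averaged over genotypes Cox7a1 was 2.59-fold lower in tumours, a difference of -1.37 ± 0.22 (SE, 4 arrays a side; limma adjusted p = 0.00344). This averaged call held under every alternative run for it, with differences from -1.56 to -1.18 over the 8 fits that each left out 1 array. In control mice alone Cox7a1 fell by 1.42 (adjusted p = 0.0139), a call that was lost in 3 of the 4 fits that left out an array of these groups, those without control mucosa replicate 2 (-1.23, adjusted p = 0.0746), control tumour replicate 1 (-1.45, adjusted p = 0.0579) or control tumour replicate 2 (-1.39, adjusted p = 0.0653). With HAI-1 deleted the difference was -1.32 (95% confidence interval -2.04 to -0.60, adjusted p = 0.0576). The test of whether these differ gave 0.10 ± 0.43 (SE, adjusted p = 0.965). Within the 5 arrays with dim spike-ins the averaged difference was -1.09.

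The other genes of the same subunit family did not pass the test. Cox7a2, the isoform found in most tissues, was 14.78 and 14.81 in control mucosa, 14.72 and 15.09 in the control tumours, 14.99 and 14.76 in deficient mucosa, and 14.82 and 14.64 in deficient tumours. Its groups overlapped, and its difference was -0.02 (95% confidence interval -0.43 to 0.39). Cox7a2l, a related protein that joins complex III and IV into supercomplexes, differed by 0.24 (95% confidence interval -0.31 to 0.78). Its 2 other probe sets, of similar brightness, gave -0.20 and 0.14. Genes that define striated muscle were dim in every sample: the mean signal over 8 such genes was 3.65 to 4.52 per array, below the filter of 5.203. Of those 8 only Ckm and Actn2 were tested, neither was called, and Myh6 was listed at 0 on 1 array. Smooth muscle genes moved the other way from Cox7a1, with 6 of 6 higher in tumours and a median difference of 2.71.

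The windows around the start sites of Cox7a1 and Cox7a2 are shown because both genes encode alternative forms of 1 subunit and 1 of them passed the test; they come from RefSeq on GRCm38.p6 and span the start, 5′ to 3′ on the gene's strand (chr7:30183921-30184220, plus strand; chr9:79759804-79760103, minus strand). Motifs of 4 factors known from respiratory gene promoters were searched on both strands: GCGCATG for NRF1, CCGGAAG for ETS factors such as GABP, AAGGTCA for ERR receptors and AAGATGG for YY1. Neither window holds any of these letters, so neither has capitals.
Cox7a1: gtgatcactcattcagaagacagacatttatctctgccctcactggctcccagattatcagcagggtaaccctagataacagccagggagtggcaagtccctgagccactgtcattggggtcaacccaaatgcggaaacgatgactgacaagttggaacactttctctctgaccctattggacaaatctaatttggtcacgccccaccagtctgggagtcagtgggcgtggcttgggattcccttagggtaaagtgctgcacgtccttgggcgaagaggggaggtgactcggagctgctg
Cox7a2: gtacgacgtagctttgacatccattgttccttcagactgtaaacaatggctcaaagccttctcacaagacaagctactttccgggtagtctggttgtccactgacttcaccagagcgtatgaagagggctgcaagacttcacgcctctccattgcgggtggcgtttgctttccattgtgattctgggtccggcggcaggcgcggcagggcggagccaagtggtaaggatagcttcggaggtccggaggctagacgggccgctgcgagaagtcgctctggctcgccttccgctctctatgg

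Succinate dehydrogenase has 4 subunits, all encoded in the nucleus, and 2 of its 4 genes fell in tumours. Sdhd, a membrane anchor subunit, was 13.35 and 13.70 in control mucosa and 12.67 and 13.12 in the control tumours, and 13.42 and 13.43 in deficient mucosa and 12.93 and 12.66 in deficient tumours. Its tumour arrays all lay below its mucosa arrays, and averaged over genotypes it fell by 0.63 ± 0.19 (SE, limma adjusted p = 0.0386), a 1.54-fold change. Sdhb, the iron-sulphur subunit, was 14.02 and 14.14 in control mucosa and 13.23 and 13.61 in the control tumours, and 14.06 and 13.73 in deficient mucosa and 13.58 and 13.17 in deficient tumours. The groups again did not overlap, and Sdhb fell by 0.59 ± 0.20 (SE, adjusted p = 0.04998), at the edge of the threshold. Sdhc, the other membrane anchor, was 12.47 and 12.79 in control mucosa, 12.15 and 12.25 in the control tumours, 12.58 and 12.36 in deficient mucosa, and 12.42 and 11.16 in deficient tumours. Its groups overlapped and 1 array was far below the others, and the difference was -0.56 (95% confidence interval -1.22 to 0.11, adjusted p = 0.167). Sdha, the flavoprotein that oxidises succinate, differed by -0.33 (95% confidence interval -0.76 to 0.09, adjusted p = 0.190).

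Both complex II calls depended on the processing. Both were lost without a filter, with the mean of a gene's probe sets and with the spike-in batch as a term. The Sdhb call was also lost with the replicate number as a block, and the Sdhd call under quantile normalization. Sdhd kept its call with this block, the stricter filter and a mean-variance trend. Sdhb passed under quantile normalization, the stricter filter and a mean-variance trend, and was not called in any of the 8 fits that left out 1 array (adjusted p = 0.0503 to 0.143). Sdhd was called in 1 of those 8 fits, the one without control tumour replicate 2 (adjusted p = 0.0425), and otherwise reached an adjusted p of up to 0.116. Second probe sets above the filter differed by -0.88 for Sdhd, -0.64 for Sdhc, and -0.13 and -0.42 for Sdha. The median over the 4 genes was -0.53 in control mice and -0.57 in HAI-1 deficient mice, and -0.42 within the arrays with dim spike-ins.

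The start-site windows of the called complex II genes are shown for the motifs they hold (chr4:140961021-140961320, plus strand; chr9:50603800-50604099, minus strand; RefSeq, GRCm38.p6, spanning the start, 5′ to 3′ on the gene's strand). Capitals mark motif letters. In Sdhb they are the NRF1 motif, read on the opposite strand, at -53 to -47 from the start, and the ETS motif at 6 to 12. In Sdhd they are the ETS motif at -46 to -40 and the ERR motif at 36 to 42, both on the opposite strand.
Sdhb: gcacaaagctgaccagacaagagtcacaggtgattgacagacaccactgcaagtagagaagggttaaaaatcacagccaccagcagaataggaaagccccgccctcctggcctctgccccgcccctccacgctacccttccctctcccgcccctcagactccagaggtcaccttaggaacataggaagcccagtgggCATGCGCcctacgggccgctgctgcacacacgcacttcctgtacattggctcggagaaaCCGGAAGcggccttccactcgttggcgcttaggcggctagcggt
Sdhd: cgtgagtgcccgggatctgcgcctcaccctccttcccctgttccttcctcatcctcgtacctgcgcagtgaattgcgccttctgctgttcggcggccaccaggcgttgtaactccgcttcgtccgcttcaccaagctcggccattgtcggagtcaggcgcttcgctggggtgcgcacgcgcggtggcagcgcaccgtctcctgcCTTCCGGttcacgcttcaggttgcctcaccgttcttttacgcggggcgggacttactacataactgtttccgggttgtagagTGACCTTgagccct

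Such motifs were common in the windows of the whole gene group. For 67 of the 82 genes 72 windows were in the table, against 32851 windows in all. The NRF1 motif was in 16.7% of the subunit windows and 3.91% of all windows, the ETS motif in 23.6% and 8.86%, the ERR motif in 11.1% and 4.72%, and the YY1 motif in 13.9% and 6.34%. The subunit windows were also richer in G and C, with a median of 58.5% against 52.7%. These are matches of letters, not binding sites, and how much base composition adds to them was not tested.

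**Figure D3:**
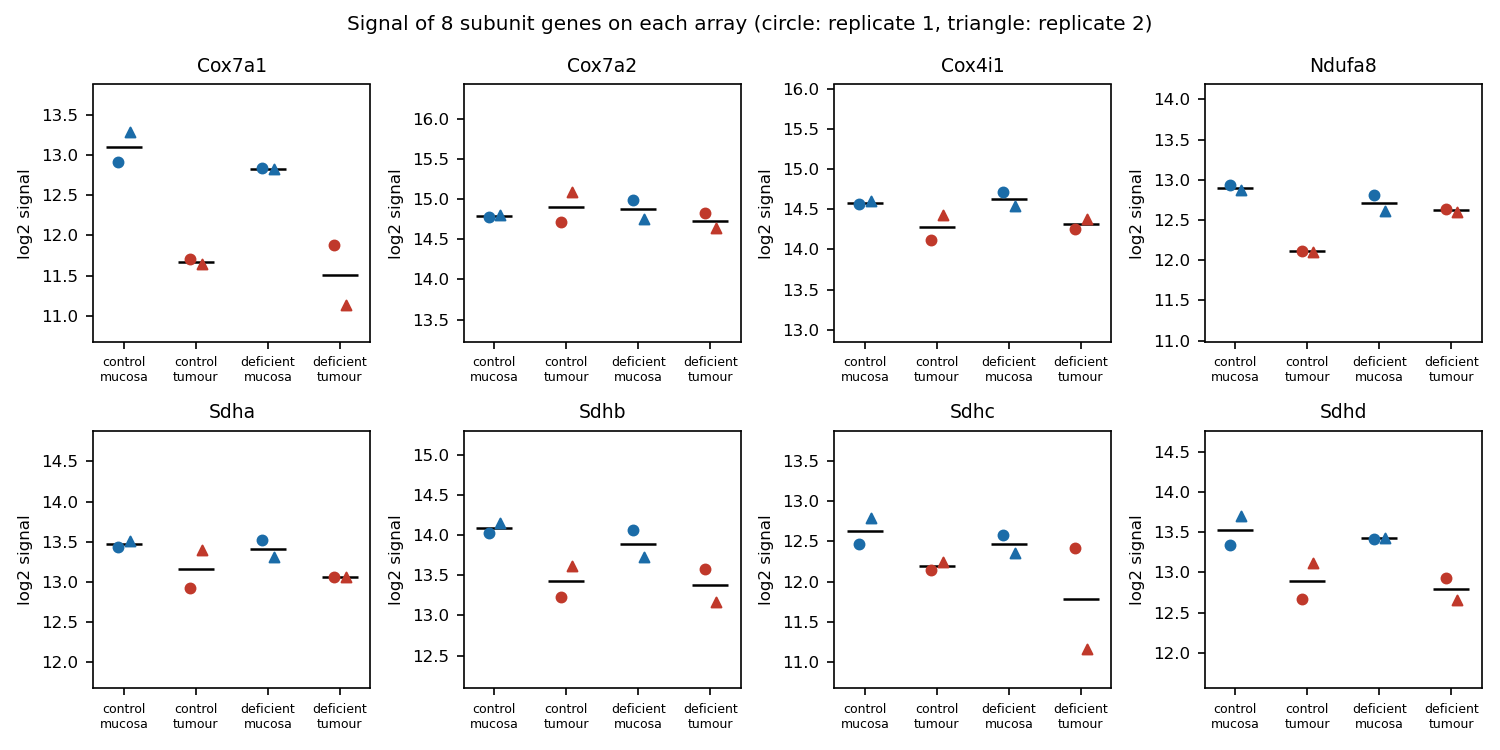
Log2 signal (vertical axis) of 8 subunit genes on each of the 8 arrays, by group, with circles for replicate 1, triangles for replicate 2 and a bar for the group mean; every panel spans the same range. In Cox7a1 the 4 tumour arrays lie between 11.13 and 11.89 and the 4 mucosa arrays between 12.82 and 13.28, while Cox7a2 overlaps between all groups; Ndufa8 is low in the control tumours alone, at 12.11 and 12.10.

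Complex I contributed no call in the averaged comparison. Its 6 tested core subunits, which include those that carry the flavin and the iron-sulphur clusters, had a median difference of -0.07. The 28 tested supernumerary subunits had one of -0.14. The ends of the complex I range were Ndufb9 and Ndufb1, both membrane-arm subunits. Ndufb9 differed by -0.44 ± 0.17 (SE, adjusted p = 0.0838). Ndufb1 differed by 0.53 ± 0.21 (SE, adjusted p = 0.0821), was measured by a much dimmer probe set than most of the others, with 7.24 to 7.82 in mucosa and 7.91 to 8.35 in tumours, and had no overlap. Ndufa4, long counted with complex I and now placed in complex IV, differed by 0.06 (95% confidence interval -0.34 to 0.46), and its hypoxia-inducible relative Ndufa4l2 lay below the filter.

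Ndufa8, a supernumerary subunit with paired cysteine motifs, was the complex I gene with a call in 1 genotype. It was 12.93 and 12.87 in control mucosa and 12.11 and 12.10 in control tumours. In HAI-1 deficient mice it was 12.80 and 12.61 in mucosa and 12.64 and 12.60 in tumours. In control mice the groups did not overlap and Ndufa8 fell by 0.79 ± 0.22 (SE, adjusted p = 0.0347), 1.73-fold. In HAI-1 deficient mice they overlapped and the difference was -0.08 (95% confidence interval -0.61 to 0.44). The difference between these 2 effects was 0.71 ± 0.32 (SE, adjusted p = 0.560), so the genotypes were not shown to differ. The call in control mice was lost under quantile normalization, without a filter, with the spike-in batch as a term, with the fit limited to the groups compared, and in each of the 4 fits that left out 1 array of the compared groups (adjusted p = 0.106 to 0.130).

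In complex III the lowest gene was Uqcrfs1, the Rieske iron-sulphur protein that takes electrons from ubiquinol. It was 13.58 and 13.95 in control mucosa, 12.80 and 13.37 in the control tumours, 13.48 and 13.41 in deficient mucosa, and 13.28 and 12.92 in deficient tumours. All tumour arrays lay below all mucosa arrays, yet the difference of -0.51 ± 0.21 did not pass the test (SE, adjusted p = 0.0917). The core proteins Uqcrc1 and Uqcrc2 differed by -0.08 and -0.22. The remaining 5 small subunits had a median of 0.06, and the highest, Uqcr10, differed by 0.10 (adjusted p = 0.718). Cyc1, the cytochrome c1 subunit that the naming rule leaves out, differed by -0.38 (adjusted p = 0.123), and cytochrome c itself, Cycs, by -0.22 (adjusted p = 0.433).

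Among the paired isoforms of complex IV, Cox7a1 was the one with a call in the fit used throughout. In control mice Cox6b2 was also called with the spike-in batch as a term, and Cox8a with a mean-variance trend. Cox4i1, the common form of subunit 4, was 14.57 and 14.60 in control mucosa, 14.12 and 14.43 in the control tumours, 14.72 and 14.54 in deficient mucosa, and 14.26 and 14.38 in deficient tumours. Its tumour arrays all lay below its mucosa arrays by a small margin, and the difference of -0.31 ± 0.17 did not pass (SE, adjusted p = 0.194). Its oxygen-regulated partner Cox4i2 was dim, at 4.96 to 5.82, and differed by 0.13. Cox6a1 and its muscle form Cox6a2 differed by 0.19 and -0.11, and Cox6b1 and its testis form Cox6b2 by -0.04 and -0.34. Cox8a differed by -0.32 and the testis form Cox8c by -0.11, while the muscle form Cox8b lay below the filter. Cox6b2 had the widest spread, with 9.88 on 1 array of control mucosa against 5.92 to 7.95 on the other 7, and its 95% confidence interval ran from -1.83 to 1.15. The 9 tested common subunits had a median of -0.04.

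In complex V no gene was called in any comparison. The catalytic head had a median difference of -0.16 over Atp5a1, Atp5b, Atp5c1, Atp5d and Atp5e, and the peripheral stalk one of -0.24 over 4 genes. Atp5o, the stalk protein that confers oligomycin sensitivity, was the lowest: it was 14.17 and 14.24 in control mucosa, 13.70 and 13.73 in the control tumours, 14.24 and 13.83 in deficient mucosa, and 13.81 and 13.68 in deficient tumours. The groups did not overlap, and the difference was -0.39 ± 0.17 (SE, adjusted p = 0.114). Atp5j, coupling factor 6 of the same stalk, was the highest at 0.15 (adjusted p = 0.593). The ring that turns in the membrane is built of an identical mature protein from 3 genes, Atp5g1, Atp5g2 and Atp5g3, which differed by -0.34, -0.05 and 0.01. For Atp5g2 a second probe set above the filter (mean signal 5.86) gave 0.77 and the average over probe sets 0.032, so its direction rests on the choice of probe set. For Atp5g1 the average was 0.69. It includes a probe set below the filter (mean signal 4.12) at 1.71, and no other probe set above the filter was available.

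The level of each complex was also followed array by array. The mean signal of the 34 complex I genes, relative to its mean over 8 arrays, was 0.06 and 0.21 for control mucosa, -0.16 and 0.25 for control tumours, 0.03 and -0.09 for deficient mucosa, and -0.02 and -0.28 for deficient tumours. The control tumours thus held both a low and a high array, and the high one was the array with the high Gapdh ratio. For the 4 complex II genes the values were 0.22 and 0.44 in control mucosa, -0.36 and -0.01 in the control tumours, 0.29 and 0.10 in deficient mucosa, and -0.10 and -0.59 in deficient tumours. All 4 mucosa arrays were above 0 and all 4 tumour arrays below it.

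**Figure D4:**
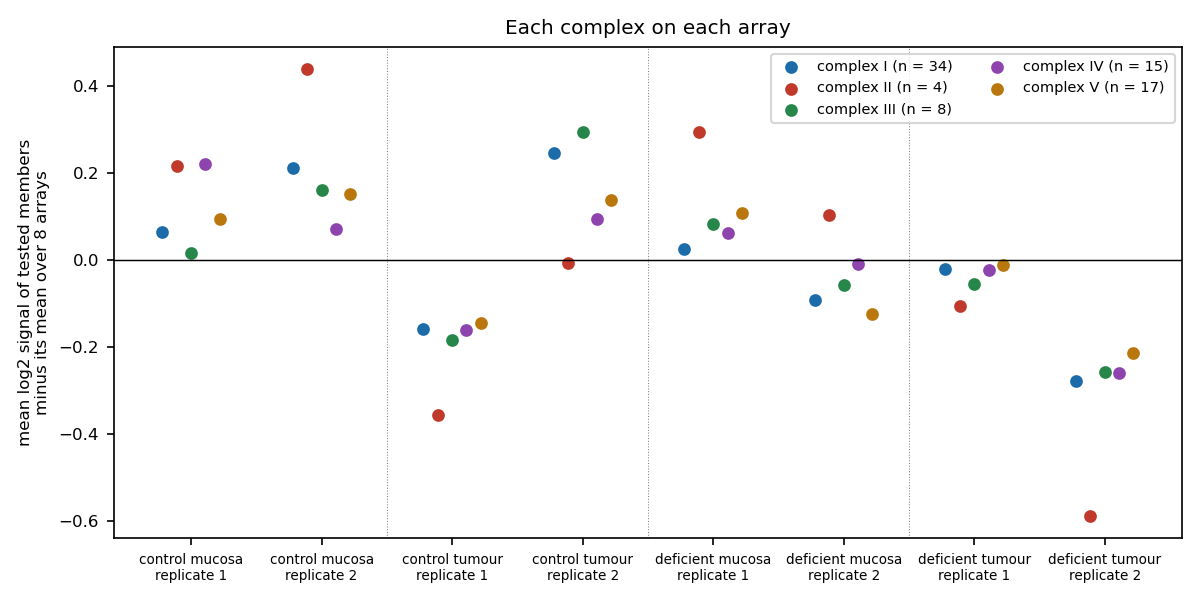
Mean log2 signal of the tested genes of each complex on each of the 8 arrays, minus that complex's mean over the arrays (vertical axis), with 1 colour per complex and the arrays along the horizontal axis. Complexes I, III, IV and V form a cluster on most arrays, at -0.18 to -0.15 on control tumour replicate 1 and at 0.09 to 0.29 on control tumour replicate 2, and complex II lies above the cluster in the mucosa arrays other than control mucosa replicate 1 and below it in the tumour arrays.

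In control mice alone 2 of the 78 genes fell in tumours, Cox7a1 and Ndufa8, and none rose, against 28.8% of all genes tested called (7.64% lower and 21.2% higher) and 23.8% of the bright genes. The arrays did not overlap for 19 of the 78 subunit genes in the lower and 6 in the higher direction. The shares among all genes were 23.6% and 45.3%, and 450 and 381 of the 1190 bright genes did not overlap. Below 0 were 49 differences (62.8% of the 78), against 38.8% of all genes and 53.1% of the bright genes. The median difference was -0.06, against 0.24 for all genes and -0.05 for the bright genes. In HAI-1 deficient mice none of the 78 was called by limma, against 4.2% of all genes (1.75% lower and 2.45% higher) and 5.63% of the bright genes, and 1, Cox7a1, had an unadjusted p under 0.05. The arrays did not overlap for 23 of the 78 in the lower and 4 in the higher direction. The shares among all genes were 18.9% and 36.6%, and 454 and 263 of the 1190 bright genes did not overlap. Below 0 were 58 differences (74.4% of the 78), against 38.7% of all genes and 60.5% of the bright genes. After Cox7a1 the smallest p below 0 belonged to Sdhd at -0.63 and Sdhb at -0.52 (adjusted p = 0.201 and 0.286). Above 0 they belonged to the complex I genes Ndufb1 at 0.61, Ndufa7 at 0.27 and Ndufs8 at 0.18 (adjusted p = 0.241, 0.543 and 0.680). The median there was -0.13, against 0.18 for all genes and -0.13 for the bright genes. Medians for complexes I to V were -0.09, -0.53, 0.03, 0.04 and -0.07 in control mice and -0.14, -0.57, -0.17, -0.10 and -0.12 in HAI-1 deficient mice. These 2 comparisons share no arrays. Differences were below 0 in both genotypes for 44 genes, above 0 in both for 15, and of opposite sign for 19, and over the 78 genes they correlated at 0.59, a description across genes that are measured on the same arrays within each comparison. The medians in control mice rest on single arrays: without control tumour replicate 2 the median over the tested genes was -0.28, and without control tumour replicate 1 it was 0.15.

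**Figure D5:**
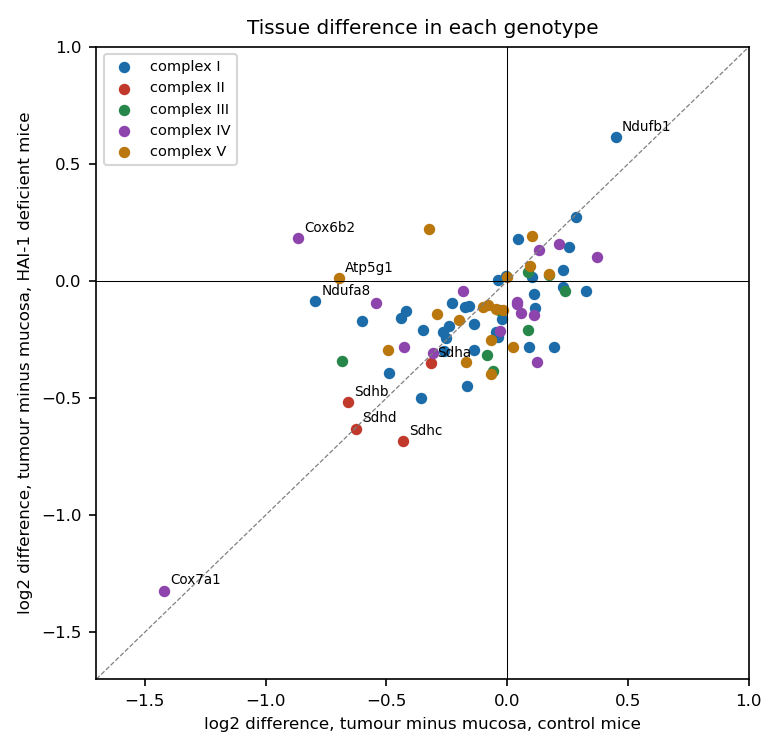
Log2 difference between tumour and mucosa in control mice (horizontal axis) against that in HAI-1 deficient mice (vertical axis) for each of the 78 tested genes, coloured by complex, with a dashed line of equality. Cox7a1 lies near the line at -1.42 and -1.32 and the 4 complex II genes lie below 0 in both, while Ndufa8 (-0.79 and -0.08) and Atp5g1 (-0.70 and 0.01) lie off the line.

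Loss of HAI-1 was followed by no call among the subunit genes in mucosa, where limma called 1.05% of all genes tested (0.152% lower and 0.899% higher) and 1.09% of the bright genes, and 1 of the 78 had an unadjusted p under 0.05. That gene was Cox8c, at 7.32 and 7.38 in control and 7.94 and 7.94 in deficient mucosa, without overlap (difference 0.59 ± 0.22, SE, adjusted p = 0.228). Another Cox8c probe set above the filter (mean signal 6.59) gave -0.17, so the direction for Cox8c rests on the choice of probe set. The other genes with the smallest p above 0 were Ndufa2 at 0.19 and Atp5g2 at 0.23 (adjusted p = 0.753 and 0.772). Below 0 they were Cox6b2 at -1.84, Ndufs5 at -0.49 and Ndufb3 at -0.41 (adjusted p = 0.357, 0.378 and 0.435). The Cox6b2 value rested on the 1 bright array of control mucosa and was -0.52 without it. The median over the 78 genes was -0.13, against 0.11 for all genes tested and -0.01 for the bright genes, and 61 differences (78.2%) were below 0, against 40.6% of all genes and 51.3% of the bright genes. The arrays did not overlap for 24 of the 78 subunit genes in the lower and 3 in the higher direction, against 17.3% and 30.9% of all genes. Of the 1190 bright genes, 274 and 260 did not overlap in these directions. Medians for complexes I to V were -0.18, -0.13, -0.05, -0.01 and -0.15. Within the arrays with dim spike-ins the median over the 78 genes was 0.02, and within those with bright spike-ins it was -0.26, 1 array a side in each.

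In tumours loss of HAI-1 was likewise followed by no call among the 78 genes. Over all genes tested 0% were called by limma, with 802 genes and 1 subunit gene at an unadjusted p under 0.05. That gene was Atp5g2, at 12.57 and 11.76 in control tumours and 12.93 and 12.96 in deficient tumours (difference 0.78 ± 0.31, SE, limma adjusted p = 0.779). The average over its probe sets gave -0.19. That average includes a probe set below the filter (mean signal 3.15) at -2.53, while another above the filter (mean signal 5.86) gave 1.17. Next above 0 were Ndufa8 at 0.51 and Atp5g1 at 0.48, and below 0 Atp5e at -0.53, Atp5md at -0.47 and Atp5h at -0.44, all with an adjusted p of 0.779 to 0.783. The median over the 78 genes was -0.18, against -0.01 for all genes and -0.13 for the bright genes, and 62 differences (79.5%) were below 0, against 50.6% of all genes and 67.6% of the bright genes. The arrays did not overlap for 2 of the 78 subunit genes in the lower and 5 in the higher direction, against 19.4% and 18.6% of all genes. Of the 1190 bright genes, 316 and 138 did not overlap in these directions. Medians for complexes I to V were -0.23, -0.10, -0.23, -0.13 and -0.19. Within the arrays with dim spike-ins the median was -0.08. Without control tumour replicate 2 the median over the 78 genes was 0.01, and without control tumour replicate 1 it was -0.37. For the interaction of tissue and HAI-1 loss no subunit gene and 0% of all genes were called, and 0 subunit genes and 1211 of all genes had an unadjusted p under 0.05. The interaction value was below 0 for 60.3% of the subunit genes, 58.9% of all genes and 64.1% of the bright genes, and its median was -0.04, -0.12 and -0.13 in turn. The smallest p above 0 belonged to Ndufa8 at 0.71, Atp5g1 at 0.71 and Cox8a at 0.45, and below 0 to Cox8c at -0.47, Ndufa2 at -0.37 and Ndufc2 at -0.37 (adjusted p = 0.560 to 0.800).

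Markers of other cells moved with the tissue difference. Of 9 enterocyte genes 4 fell in tumours, Lct, Anpep, Slc5a1 and Mttp, and none rose, with a median of -0.34. The mean of these 9 genes was 14.62 and 14.65 in control mucosa, 13.98 and 13.68 in the control tumours, 14.69 and 14.56 in deficient mucosa, and 13.45 and 13.64 in deficient tumours. This mean was lower on every tumour array than on every mucosa array, in the direction of Cox7a1 and complex II. Of the 9 genes 7 had a difference below 0, 5 had all tumour arrays below all mucosa arrays, and none was at 0. A list of 6 general epithelial genes did not fall in this way: 2 rose and 1 fell, with a median of 0.06. Its mean was 14.40 to 14.50 on the tumour arrays and 14.11 to 14.39 on the mucosa arrays. All 6 fibroblast genes rose, with a median of 3.05, as did 7 of 8 genes of Wnt-driven tumours, with a median of 2.29, and 4 of 4 proliferation genes, with a median of 1.04. Of 6 T and NK cell genes 4 fell, with a median of -1.14. In mucosa, all 6 T and NK cell genes lay lower in both deficient arrays than in both control arrays, with a median of -1.39 and no call. The same held for all 6 in tumours, with a median of -1.38 and no call. The part of these cell types in the differences of the subunit genes was not tested.

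Other gene groups of mitochondria and energy metabolism were counted in the comparison of tumour with mucosa averaged over genotypes, in which 25.7% of all genes tested were called higher and 10.1% lower. In the tricarboxylic acid cycle, which shares succinate dehydrogenase with the respiratory chain, 5 of 13 tested genes (38.5%) fell and none rose, with a median of -0.48. They were Ogdh at -0.96 and Dlst at -0.82, both parts of the oxoglutarate dehydrogenase complex, Sucla2 at -0.71, Idh3a at -0.61 and Cs, citrate synthase, at -0.59. Mitochondrial ribosomal proteins, which translate the mitochondrially encoded subunits, had a median of 0.38, and 15 of 76 (19.7%) rose, a smaller share than among all genes, while none fell, with the highest differences for Mrps27 at 1.10 and Mrpl52 at 0.97. The others that rose were Mrpl3, Mrpl11, Mrpl13, Mrpl22, Mrpl40, Mrpl41, Mrpl44, Mrps2, Mrps10, Mrps14, Mrps24, Mrps26 and Mrps35, by 0.56 to 0.91. Of the 46 tested assembly factors 5 rose and 3 fell, 17.4% in all against 35.8% of all genes tested, with a median of 0.07. Those that rose were Ndufaf6, Acad9 and Dmac1 for complex I, Sdhaf4 for complex II and Uqcc2 for complex III, and those that fell were Tmem126b, Ttc19 and Sco2. Uqcc2, which helps assemble complex III, rose by 1.01 (adjusted p = 0.00583), and Tmem126b, a complex I assembly factor, fell by 1.497 (adjusted p = 0.00713), with a dim probe set at 4.89 and 3.59 in control tumours against 6.27 to 7.38 elsewhere. The 1 mitochondrially encoded subunit with a probe set, ND5, differed by -0.01 (adjusted p = 0.990).

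Among 16 regulators of mitochondrial biogenesis 4 rose and 2 fell, 37.5% in all and close to the 35.8% of all genes called. Ppargc1a, the coactivator PGC-1alpha that drives expression of respiratory genes, was 10.89 and 11.50 in control mucosa, 8.90 and 9.05 in the control tumours, 9.45 and 9.94 in deficient mucosa, and 8.81 and 8.80 in deficient tumours. Every tumour array was below every mucosa array, and Ppargc1a fell by 1.56 ± 0.21 (SE, adjusted p = 0.00211). Esrra, the ERR-alpha receptor that partners it, fell by 1.12 ± 0.34 (SE, adjusted p = 0.0363). Pprc1, Tfb1m, Tfb2m and Twnk rose by 0.90, 0.76, 1.04 and 0.64. Nrf1 and Gabpa, whose motifs were counted above, differed by -0.11 and -0.10, and Tfam, which packages mitochondrial DNA, by 0.24, none past the threshold. Of 16 glycolysis genes 4 rose, Slc2a1, Hk1, Hk2 and Aldoa, and 2 fell, Pfkp and Pfkfb3, again 37.5%, with a median of 0.18 against 0.20 for all genes. Slc2a1, the glucose transporter GLUT1, was also higher in deficient than in control mucosa by 1.97 ± 0.32 (SE, adjusted p = 0.0443). These lists were chosen with results of these data known, so their direction is not independent evidence.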

How the data were processed

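RNA from 8 samples, 2 per group, was measured on Affymetrix arrays. The deposited values are log2 signals per probe set; the submitters' processing notes name MAS5 and RMA without versions or roles, and every array had nearly the same trimmed mean of linear signal (500.003 to 500.004 with 2 percent trimmed at each end), the scaling MAS5 applies. Of 45101 probe sets, 34958 were assigned to 1 gene in the platform annotation; the brightest probe set stood for each of 18194 genes, and genes at or below the 40th percentile of mean signal (5.20) were left out. limma 3.58.1 in R 4.3.3 fitted 1 mean per group over all 8 arrays, with Benjamini-Hochberg adjustment over the 13119 genes tested and calls at an adjusted p under 0.05, two-sided. The prior had 3.52 degrees of freedom beside 4 residual ones. The script was tested on simulated data. Precision is limited by there being 2 arrays a group.

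The subunit genes and all lists were chosen with earlier results of these data known. Named are the called genes of each comparison (where there was no call, the 3 with the smallest p in each direction), the extremes of each complex, the tissue-specific isoforms with their partners, the complex II genes and the called or central genes of the related lists. The genes Uqcrc1, Uqcrc2 and Uqcrb and the genes whose arrays did not overlap were named after their values were seen. Alternatives were quantile normalization, no filter or one at the 60th percentile, the mean of a gene's probe sets, a mean-variance trend, a fit limited to the groups compared, the replicate number as a block, the spike-in batch as a term, and leaving out each array. Sequences are RefSeq windows on GRCm38.p6, matched by gene ID, with windows for 67 of the 82 genes.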

Additional observations from a re-analysis of the deposited data

How the results depend on the processing

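Cox7a1 was called in the averaged comparison under every alternative run (adjusted p = 0.000668 to 0.0149); the other counts were less stable. In that comparison 3 subunit genes fell, against 1 without a filter, 1 with the mean of probe sets, 1 with the spike-in batch as a term, 7 with a mean-variance trend, and 1 to 2 when 1 array was left out. In control mice 2 fell, against 1 with quantile normalization, 1 without a filter, 1 with only the groups compared, 5 with the trend, and 0 to 2 when 1 array was left out. With the spike-in batch as a term the 2 genes called in control mice were Cox7a1 and Cox6b2, and Ndufa8 was not called. In HAI-1 deficient mice 0 fell, against 1 with the 60th percentile filter and 1 with the trend. Quantile normalization moved the median of complex IV in control mice to -0.16, and the median of all genes tested in the averaged comparison from 0.20 to 0.11.

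Leaving out 1 array moved many medians, several of them across 0. In control mice they ranged from -0.28 to 0.15 over all subunit genes, -0.31 to 0.15 for complex I, -0.22 to 0.26 for III, -0.17 to 0.14 for IV and -0.27 to 0.14 for V, lowest without control tumour replicate 2 and highest without control tumour replicate 1 for the median over all. In HAI-1 deficient mice they ranged from -0.27 to -0.054 over all, -0.30 to 0.0071 for complex I, -0.74 to -0.33 for II, -0.27 to -0.040 for III, -0.21 to -0.031 for IV and -0.22 to -0.0047 for V. For HAI-1 loss in mucosa they ranged from -0.21 to -0.036 over all, and crossed 0 for complexes III (up to 0.019), IV (up to 0.018) and V (up to 0.0069). For HAI-1 loss in tumours the ranges were -0.37 to 0.014 over all, -0.44 to 0.0051 for complex I, -0.33 to 0.13 for II, -0.48 to -0.0072 for III, -0.33 to 0.10 for IV and -0.38 to 0.021 for V. For the interaction they were -0.27 to 0.15 over all, -0.25 to 0.19 for complex I, -0.25 to 0.24 for II, -0.42 to 0.0033 for III, -0.30 to 0.086 for IV and -0.21 to 0.14 for V.

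Genes near 0 in the averaged comparison changed sign. Atp5g2 was 0.083 with quantile normalization and 0.032 with the mean of probe sets, Atp5g3 -0.11 with quantile normalization and -0.0062 with the batch term, Cox6a1 -0.058 and Atp5g1 0.69 with the mean of probe sets. For HAI-1 loss in tumours Atp5g2 was -0.19 with the mean of probe sets. The means for Atp5g1 and Atp5g2 include probe sets below the filter. With 1 array left out the ranges were -0.25 to 0.15 for Atp5g2, -0.076 to 0.093 for Atp5g3, -0.077 to 0.34 for Cox4i2, -0.29 to 0.065 for Cox6a2, -0.14 to 0.062 for Cox6b1, -0.998 to 0.32 for Cox6b2, -0.11 to 0.075 for Cox7a2, -0.028 to 0.15 for Ndufa4 and -0.026 to 0.23 for Uqcr10. The causes were not tested.

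The labels' replicate numbers were not taken as pairs, since the labels state no pairing. The deviations of same-numbered arrays correlated at -0.138 to 0.220 between groups. Between mucosa and tumour of the same genotype they correlated at 0.109 in control and 0.0078 in deficient mice. With 2 arrays a group these values cannot show whether tumour and mucosa came from 1 mouse. With the replicate number as a block, 2 subunit genes fell in the averaged comparison, Cox7a1 and Sdhd (adjusted p = 0.0492). Sdhb did not pass (adjusted p = 0.0674), and in control mice 2 genes fell. Every group holds both replicate numbers, so this block cannot change a fitted difference, and the unchanged medians do not test their stability. Over all genes tested, the averaged comparison called 3366 genes higher and 1331 lower, against 2769 and 1501 after quantile normalization, and 2259 and 1319 where each gene's probe sets were averaged. No gene was called without a filter in HAI-1 deficient mice (551 with it) or for HAI-1 loss in mucosa (138 with it).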

Other observations

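Several subunit genes had further single-gene probe sets. Among 47 subunit genes with more than 1 probe set above the filter, 40 had every other probe set within 0.5 log2 units of the brightest one in the averaged tumour against mucosa difference, and the median of the largest gap to the brightest was 0.20. The widest gaps were seen for Atp5a1, the alpha subunit of ATP synthase, at -0.16 for the brightest probe set and -1.34 for another, and for Ndufab1, the mitochondrial acyl carrier protein, at -0.16 with others from -1.34 to 0.19. Atp5j2 stood at -0.10 against -0.96 and Atp5c1, the gamma subunit, at -0.18 against -0.88. Uqcrq, a small complex III subunit, stood at -0.20 against 0.36. The probe sets with the widest gap in these 5 genes were dim, with mean signals of 6.33 to 7.94 against 13.0 to 14.4 for the brightest ones. Another bright probe set of Atp5a1 (mean signal 13.9) gave -0.47.

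Probe sets that the annotation assigns to a subunit gene and a near-identical copy were not used for the genes above. Those shared by Ndufb4 and its copies Ndufb4b and Ndufb4c differed by -0.08 and -0.04 between tumour and mucosa, and the one shared by Ndufs6 and Ndufs6b by -0.12. Those shared by Ndufa11 and Ndufa11b differed by -0.46 (mean signal 12.6) and 0.04 (mean signal 6.52).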
